A study of Sus scrofa with 11 samples.

Results

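Adipocytes are the fat-storing cells of the subcutaneous layer, and 10 genes that serve their hormones, lipid droplets and lipid uptake were read out of the 30376 genes of the deposited expression table by their gene symbols. The genes were ADIPOQ, LEP, PLIN1, LIPE, PNPLA2, CIDEC, FABP4, FABP3, LPL and CEBPA, and all 10 were found. The samples were 11 full-thickness wounds of the dorsal skin of 2 female Yucatan minipigs, made with a 2 cm biopsy punch and excised on day 10. The diabetic wounds (N = 7) came from a minipig given streptozotocin, a toxin of the insulin-producing beta cells, at 6 months of age, which was kept on insulin and was wounded 60 days after induction with the insulin withdrawn shortly before. The non-diabetic wounds (N = 4) came from a non-diabetic minipig that had the same wounding procedure. Each group was thus 1 animal, so diabetes and the individual animal cannot be told apart, and every spread and p-value below describes wounds of the same animal. The labels call the tissue dermal wound or skin.

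White adipocytes store triglyceride in a large droplet coated by perilipin 1, enlarge that droplet with the help of the CIDE proteins, and release fatty acids through adipose triglyceride lipase followed by hormone-sensitive lipase. The fatty acids that refill the droplet are freed from circulating lipoproteins by lipoprotein lipase on the capillary wall, are taken up by membrane carriers, and travel in the cytosol bound to small fatty acid-binding proteins. Insulin promotes lipoprotein lipase activity in fat and restrains lipolysis, and adipocytes report on fat stores through secreted leptin and adiponectin. In skin, dermal and subcutaneous adipocytes lie directly under and around a full-thickness wound. Several of these genes are also used elsewhere: FABP4 in macrophages and capillary endothelium, LPL in macrophages and muscle, and FABP3 in heart and skeletal muscle.

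Of the 10 genes, 3 were lower in diabetic wounds (LPL, FABP3 and LEP), none was called higher, and 7 did not pass the test. A call required an adjusted p under 0.05 together with a log2 fold change (log2FC, diabetic minus non-diabetic) beyond 0.5 in size, the thresholds of the study, in limma's moderated test with Benjamini-Hochberg adjustment over the 13956 genes that reached 0.5 FPKM (reads scaled by gene length and library size) in at least 4 wounds. In that comparison 3.00% of all genes tested were called, 1.66% lower and 1.35% higher. Before adjustment (p under 0.05, fold threshold kept), 7.13% of all genes tested passed, and among the 10 genes limma gave these 3 lower and 1, FABP4, higher. The counts at an unadjusted p given for the gene lists below have no fold threshold. Dropping the fold threshold can only raise the share of all genes that pass, so their background share is at least 7.13%. It was not computed, and these counts are not read as an excess. The groups did not overlap in 3 of the 10 genes, all 3 lower in diabetic wounds, against 5.65% of all genes tested, 2.96% lower and 2.69% higher. LEP could pass the filter on low values only by being high in 1 group, and 2 of the other 9 genes were called lower and did not overlap. The median log2FC was -0.99 over the 10 genes and 0.01 over all genes tested. In bulk tissue fewer adipocytes and less RNA per adipocyte cannot be told apart.

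**Figure D1:**
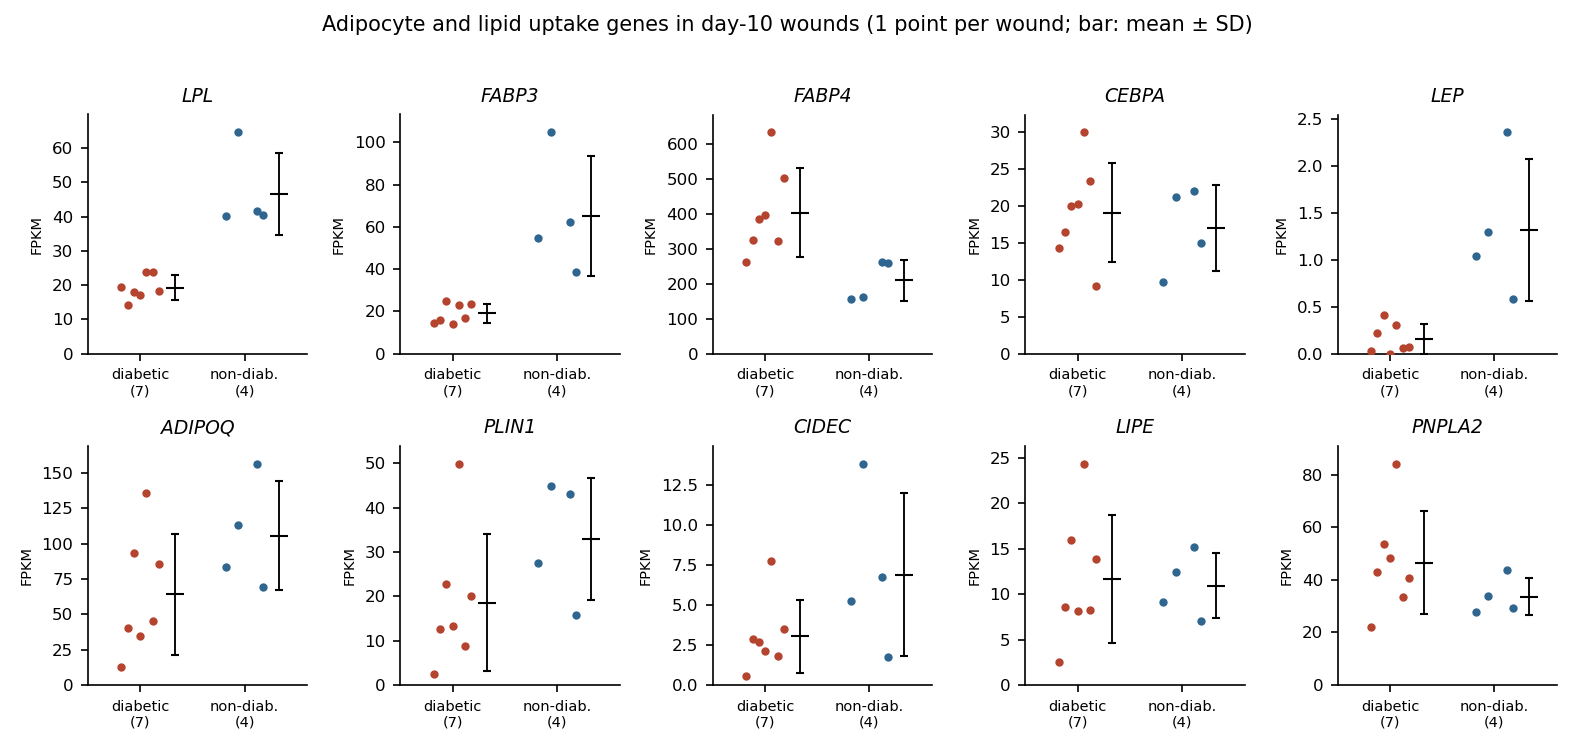
Expression (FPKM, linear axes) of the 10 genes, 1 point per wound, with the mean and SD of the 7 diabetic and 4 non-diabetic wounds beside the points. LPL, FABP3 and LEP show no overlap between groups, FABP4 overlaps by 1 diabetic wound, and the other 6 overlap broadly.

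The bases before the annotated start are shown for FABP3, 1 of the genes called lower. They are 250 bases of the pig genome (Sscrofa11.1) that end at the base before the start, written 5′ to 3′ on the strand of the gene. Matches on either strand to the C/EBP pattern TTNNGNAA, the TATA box TATAAA and the CCAAT box were searched and would stand in capitals.
FABP3, chr6:87950709-87950958, minus strand: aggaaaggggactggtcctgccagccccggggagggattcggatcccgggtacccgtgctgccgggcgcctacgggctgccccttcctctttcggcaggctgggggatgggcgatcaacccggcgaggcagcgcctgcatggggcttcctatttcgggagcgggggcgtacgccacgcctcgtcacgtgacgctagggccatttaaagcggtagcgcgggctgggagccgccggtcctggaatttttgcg
The window held none of these 3 motifs, which 31.7%, 9.77% and 31.9% of 19546 promoters of the same length held, and 68.4% of its bases were G or C, against a median of 57.6% over those promoters. It held no single AGGTCA, the half-site of nuclear receptors such as PPAR gamma, either, against 12.2% of all. No match says only that these letters are not in this window.

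The uptake of lipid from the blood begins with lipoprotein lipase, and its gene was 2.42-fold lower in diabetic wounds by the ratio of means. LPL (chromosome 14, 4104761 to 4134964, plus strand) ranged from 14.3 to 23.9 FPKM with a median of 18.3 FPKM in the diabetic wounds, and had 40.2, 41.7, 64.7 and 40.4 FPKM in non-diabetic wounds 1 to 4. The groups did not overlap, and 3 of the 4 non-diabetic wounds were nearly equal, with wound 3 above them. The means were 19.3 ± 3.52 FPKM (SD, n = 7) and 46.7 ± 12.0 FPKM (SD, n = 4), a log2FC of -1.24 (standard error, SE, 0.17, adjusted p = 0.00229, limma), and the two-sided exact permutation test over the 330 splits of the wounds gave p = 0.00606, the smallest it allows. Without non-diabetic wound 3 the log2FC was -1.08 (adjusted p = 0.00626, limma). LPL is on the study's own list of changed PPAR pathway genes, which was drawn from these samples, so its direction is not independent of that list.

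FABP3, a cytosolic fatty acid carrier, had the largest log2FC of the 10 genes on the log2(FPKM + 0.5) scale, though not with a pseudocount of 0.1 (-1.71, against -2.55 for LEP) or by the ratio of means. It lies on chromosome 6 (87943003 to 87950708, minus strand) and had 14.2 to 24.8 FPKM with a median of 16.9 FPKM in diabetic wounds, against 54.8, 62.4, 105 and 38.5 FPKM in non-diabetic wounds 1 to 4. The groups did not overlap, and non-diabetic wound 3 was again the highest. The means were 19.0 ± 4.69 and 65.1 ± 28.3 FPKM (SD, n = 7 and 4), 3.43-fold apart, with a log2FC of -1.69 (SE 0.25, adjusted p = 0.00423, limma; exact permutation p = 0.00606). The highest diabetic wound was wound 3, which was also the wound with skeletal muscle RNA: its 15 muscle markers summed to 2275 FPKM, against 3.00 to 7.27 FPKM in the other 10 wounds. Diabetic wounds 4 and 6 followed closely for FABP3, at 23.6 and 23.2 FPKM, with muscle sums of 4.33 and 6.87 FPKM. Without diabetic wound 3 the log2FC was -1.76 (adjusted p = 0.00677, limma). The annotated gene model of FABP3 is 447 bases long with 2 bases of 3′ untranslated sequence, so its FPKM rests on fewer bases than that of FABP4 (871 bases), and 163 to 1631 reads per wound lay behind it. With the macrophage markers described next as a covariate FABP3 was not called (log2FC -1.45, adjusted p = 0.0612, limma), and its SE rose from 0.25 to 0.36. FABP3 is also on the study's list.

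FABP4, the adipocyte fatty acid-binding protein and the most abundant of the 10 genes in both groups, pointed the other way and missed the threshold after adjustment. It lies on chromosome 4 (55096400 to 55101209, plus strand) and had 260 to 633 FPKM with a median of 384 FPKM in diabetic wounds, against 156, 262, 162 and 259 FPKM in non-diabetic wounds 1 to 4. The overlap came from diabetic wound 1 alone, at 260.4 FPKM, below the 261.5 FPKM of non-diabetic wound 2. The log2FC was 0.92 (SE 0.24, adjusted p = 0.0607, limma; exact permutation p = 0.0121), and it was called without diabetic wound 1 (1.02, adjusted p = 0.0366, limma). Markers of macrophages, which also express FABP4, moved with the groups: the 13 markers summed to 829 to 1833 FPKM in diabetic and 542 to 992 FPKM in non-diabetic wounds, and 3 of them (MRC1, MARCO and CD14) were called higher (8 higher and 0 lower at an unadjusted p under 0.05). The study's staining of CD206, the protein of MRC1, went the other way, with fewer positive macrophages in diabetic wounds. With the mean log2 level of the 13 markers as a covariate, the log2FC of FABP4 was 0.57 (SE 0.33, adjusted p = 0.303, limma). Because that level moved with the groups, the covariate also widened standard errors, so a call lost under it can reflect lost precision. The 12 endothelial markers summed to 360 to 463 and 337 to 405 FPKM, with none called higher or lower (limma; 2 higher and 0 lower at an unadjusted p under 0.05).

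LEP, the gene of the satiety hormone leptin, was detected at low level, higher in every non-diabetic than in any diabetic wound. On chromosome 18 (20106867 to 20124071, minus strand), it had 0 to 0.407 FPKM with a median of 0.0692 FPKM in diabetic wounds and 1.03, 2.35, 1.29 and 0.579 FPKM in non-diabetic wounds 1 to 4. These values rest on 0 to 80 reads per diabetic wound and 113 to 375 reads per non-diabetic wound, and the 0 reads of diabetic wound 7 allow up to 0.0233 FPKM (3 reads, counting error only). The means were 0.156 ± 0.156 and 1.31 ± 0.753 FPKM (SD, n = 7 and 4), 8.44-fold apart, with a log2FC of -1.41 on the log2(FPKM + 0.5) scale, which understates the change of a low gene (SE 0.25, adjusted p = 0.0126, limma; exact permutation p = 0.00606). LEP reached 0.5 FPKM in all 4 non-diabetic and in none of the 7 diabetic wounds, so it entered the test only through the group where it was high and had to differ, and its test is given as a description. The log2FC was -2.55 with a pseudocount of 0.1 and -3.82 with voom on the recovered reads, and LEP was not called with the macrophage covariate (-1.17, adjusted p = 0.0974, limma).

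ADIPOQ, which encodes adiponectin and is made almost only by adipocytes, had lower values in most diabetic wounds without passing the test. It ranged from 12.8 to 136 FPKM with a median of 45.5 FPKM in diabetic wounds, and had 83.4, 157, 113 and 69.5 FPKM in non-diabetic wounds 1 to 4. Diabetic wounds 3, 4 and 6 reached into the non-diabetic range, and wound 1 lay far below it. The log2FC was -0.97 (SE 0.54, adjusted p = 0.371, limma; exact permutation p = 0.127), and it was -0.64 without diabetic wound 1 (adjusted p = 0.384).

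The 2 droplet genes PLIN1 and CIDEC varied as widely. PLIN1, whose perilipin coat guards the droplet from lipases, had 2.45 to 49.9 FPKM with a median of 13.3 FPKM in diabetic wounds, and 27.6, 43.1, 44.9 and 15.9 FPKM in non-diabetic wounds 1 to 4. Its log2FC of -1.12 carried an SE of 0.62 (adjusted p = 0.373, limma). CIDEC, which promotes droplet fusion, had 0.536 to 7.74 FPKM with a median of 2.72 FPKM in diabetic wounds, and 5.26, 6.79, 13.8 and 1.75 FPKM in non-diabetic wounds 1 to 4, a log2FC of -1.01 (SE 0.54, adjusted p = 0.358, limma). Without diabetic wound 1 the log2FC of PLIN1 was -0.74, and without non-diabetic wound 3 that of CIDEC was -0.60. In both genes diabetic wound 6 stood above the other diabetic wounds and the groups overlapped.

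The lipase genes of the droplet had log2FC values nearer to 0. LIPE, the hormone-sensitive lipase gene, had 2.55 to 24.3 FPKM with a median of 8.55 FPKM in diabetic wounds, and 9.14, 15.1, 12.5 and 7.00 FPKM in non-diabetic wounds 1 to 4 (log2FC -0.10, SE 0.46, adjusted p = 0.941, limma). PNPLA2, the adipose triglyceride lipase gene, had 22.1 to 84.2 FPKM with a median of 43.1 FPKM in diabetic wounds, and 27.9, 43.6, 33.7 and 29.4 FPKM in non-diabetic wounds 1 to 4 (log2FC 0.38, SE 0.29, adjusted p = 0.531, limma; 0.22 without diabetic wound 6). CEBPA, a transcription factor of adipocyte differentiation that other cells of skin also use, had 9.10 to 29.9 FPKM with a median of 19.9 FPKM, and 9.62, 22.0, 21.2 and 15.0 FPKM in non-diabetic wounds 1 to 4 (log2FC 0.15, SE 0.30, adjusted p = 0.843, limma). These 3 genes overlapped between groups.

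The diabetic wounds differed among themselves by more than the group means did for several of the genes. The highest diabetic wound exceeded the lowest 20.3-fold for PLIN1, 14.4-fold for CIDEC, 10.6-fold for ADIPOQ and 9.55-fold for LIPE, against 1.75-fold for FABP3 and 1.68-fold for LPL. Wound 1 was the lowest and wound 6 the highest diabetic wound for 6 genes: ADIPOQ, PLIN1, LIPE, PNPLA2, CIDEC and FABP4. Across the 7 diabetic wounds, which share an animal, log2(FPKM + 0.5) of ADIPOQ correlated with that of LIPE (Pearson's r 0.991, Spearman's rho 0.964), PLIN1 (0.957 and 0.857), CIDEC (0.918 and 0.750) and FABP3 (0.885 and 0.857), and hardly with that of LPL (0.264 and 0.286) or CEBPA (0.267 and 0.393). Without wounds 1 and 6, r over the remaining 5 wounds was 0.978 for LIPE, 0.806 for PLIN1, 0.625 for CIDEC and 0.999 for FABP3, while that of PNPLA2 dropped from 0.853 to 0.260 and that of FABP4 from 0.862 to 0.579.

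**Figure D2:**
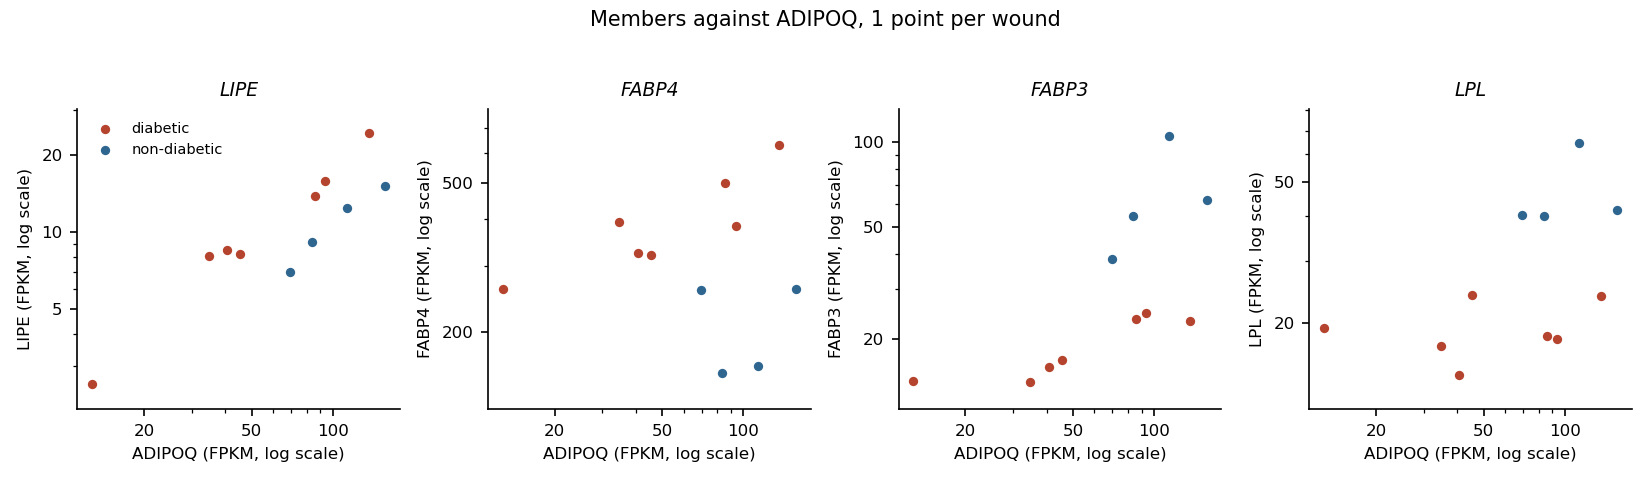
LIPE, FABP4, FABP3 and LPL against ADIPOQ (FPKM, both axes logarithmic), 1 point per wound. LIPE follows ADIPOQ within each group with the diabetic wounds above the non-diabetic ones at a like ADIPOQ level, whereas LPL stays between 14.3 and 23.9 FPKM in the diabetic wounds over the whole range of ADIPOQ.

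Expressed relative to ADIPOQ in the same wound, 4 of 9 ratios did not overlap between the groups. ADIPOQ itself had a log2FC of -0.97 and LIPE one of -0.10, so a higher ratio need not mean more of the gene. FABP4 is also used by macrophages and endothelium, so its ratio is not per adipocyte transcript. Among all genes tested, the ratio to ADIPOQ was without overlap and higher in diabetic wounds in 1.75%, and lower in 0.0860%. LIPE and PNPLA2 varied with ADIPOQ (Pearson's r 0.99 and 0.861, group means subtracted), which narrows their ratios. The 1.75% is therefore no like background for them. The ratio of LIPE to ADIPOQ was 0.162 to 0.233 in diabetic and 0.0967 to 0.110 in non-diabetic wounds, that of PNPLA2 was 0.474 to 1.73 and 0.279 to 0.424, and that of FABP4 was 4.10 to 20.3 and 1.44 to 3.73. All 3 were higher in every diabetic wound. The ratio of LEP was lower in every diabetic wound, at 0 to 0.00541 against 0.00833 to 0.0150. LEP was among the genes tested only through the group where it was high, so its ratio is a description and the 0.0860% is no measure for it. For LPL the ratios overlapped, at 0.176 to 1.51 and 0.266 to 0.581, with the highest value in diabetic wound 1, and those of FABP3, PLIN1, CIDEC and CEBPA overlapped as well.

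**Figure D3:**
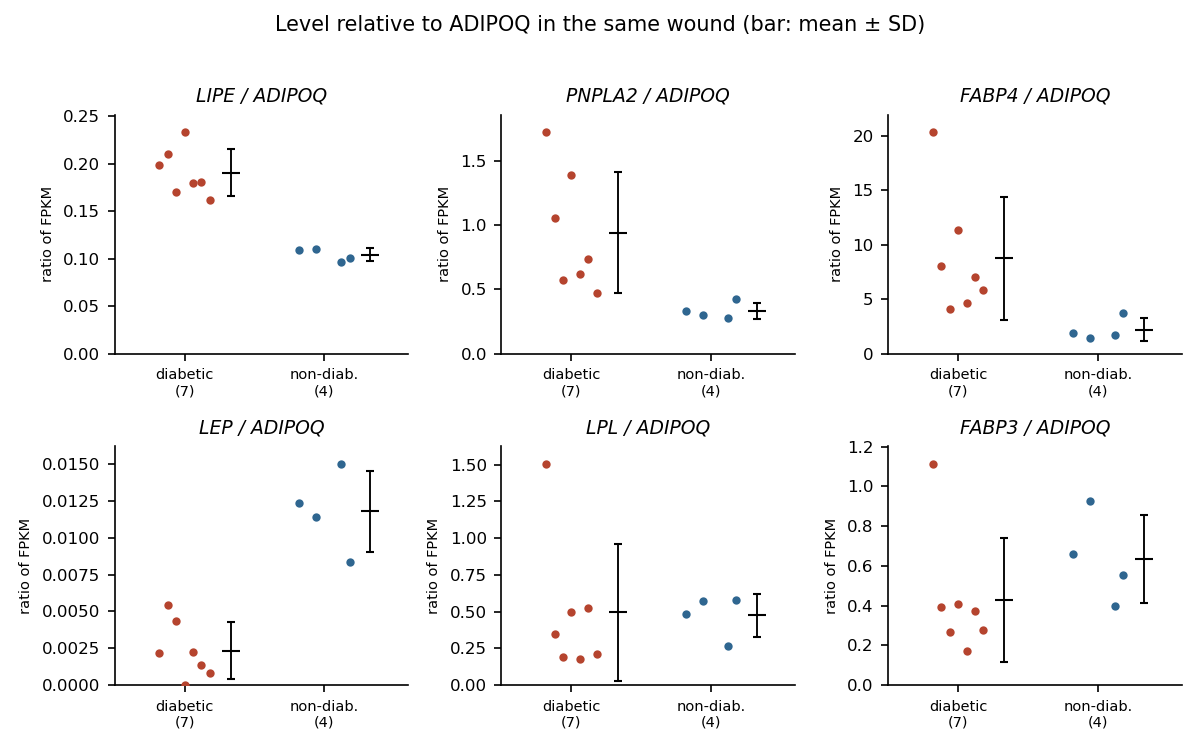
FPKM of 6 genes divided by the FPKM of ADIPOQ in the same wound (linear axes from 0), 1 point per wound, with mean and SD beside the points. The ratios of LIPE, PNPLA2 and FABP4 are higher and that of LEP lower in all 7 diabetic wounds, and diabetic wound 1, where ADIPOQ was lowest at 12.8 FPKM, holds the highest ratio of PNPLA2, FABP4, LPL and FABP3.

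A term for the level of other adipocyte genes, the mean log2 value of a list that holds none of the 10, shifted several of these values. With it the log2FC of ADIPOQ was -0.37 (SE 0.15), that of PLIN1 -0.41 and that of CIDEC -0.46, none of them called, and that of LPL (-1.20, adjusted p = 0.0051) and FABP3 (-1.49, adjusted p = 0.00293) stayed called (limma). In the same fit FABP4 (1.11, adjusted p = 0.0135) and PNPLA2 (0.67, adjusted p = 0.0294) were called higher, and LIPE turned positive (0.43, adjusted p = 0.0369) below the fold threshold. Of the 15 other adipocyte genes tested, none was called (limma; 1 higher and 3 lower at an unadjusted p under 0.05), with a median log2FC of -0.40. The most abundant of them were CFD, the gene of the protease adipsin (92.7 ± 25.3 and 60.3 ± 16.2 FPKM, SD, n = 7 and 4), and ADIRF (21.2 ± 12.7 and 19.3 ± 5.35 FPKM).

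**Figure D4:**
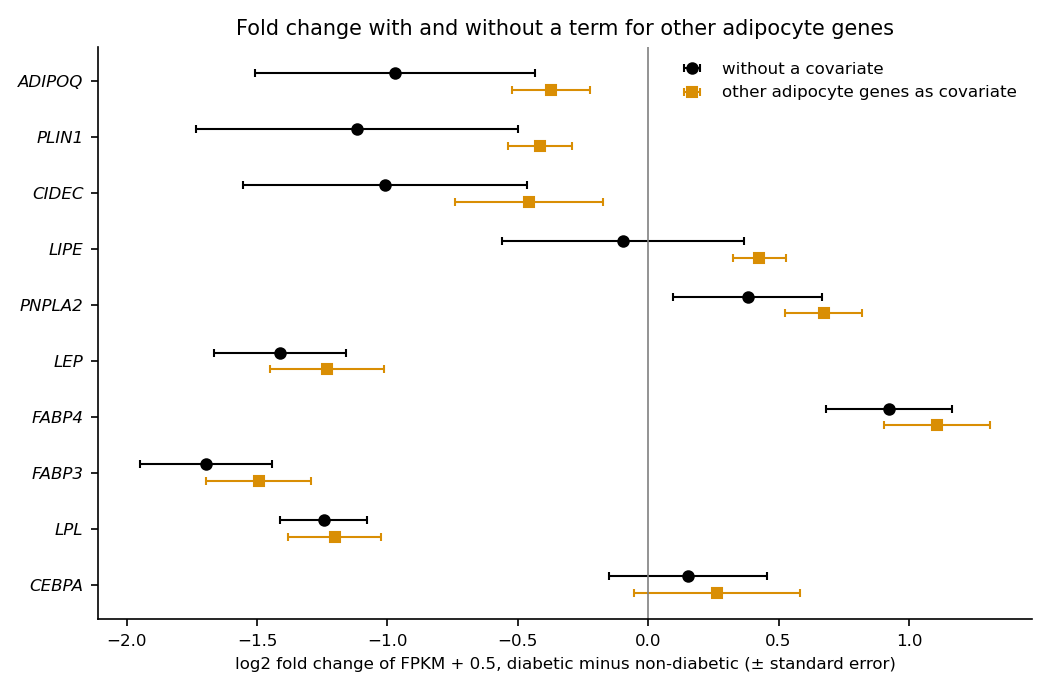
Log2 fold change of FPKM + 0.5 (diabetic minus non-diabetic) with its standard error for each of the 10 genes, without a covariate (black circles) and with the level of other adipocyte genes as a covariate (orange squares). The standard errors of ADIPOQ, PLIN1, LIPE and PNPLA2 shrink with the covariate, that of ADIPOQ from 0.54 to 0.15, and LPL, FABP3 and LEP stay below 0.

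Where LPL was lower, the genes of an inhibitor and of the capillary anchor of its enzyme were higher. Of 14 tested genes of lipase handling and lipoprotein uptake, 2 were called higher and none lower (limma; 3 higher and 1 lower at an unadjusted p under 0.05), with a median log2FC of 0.05. ANGPTL4, a secreted inhibitor that unfolds lipoprotein lipase, had 64.4 to 140 FPKM with a median of 130 FPKM in diabetic wounds, and 12.3, 28.2, 16.0 and 23.5 FPKM in non-diabetic wounds 1 to 4, a log2FC of 2.58 (SE 0.25, adjusted p = 0.000338, limma). GPIHBP1, which carries the lipase across capillary endothelium and anchors it there, had 17.1 to 59.5 FPKM with a median of 38.1 FPKM, and 11.9, 12.8, 8.72 and 8.65 FPKM in non-diabetic wounds 1 to 4 (log2FC 1.74, SE 0.31, adjusted p = 0.0116, limma). The groups did not overlap in either gene, which is no separate support, as both were picked by their call in this comparison. With the macrophage level as a covariate GPIHBP1 was not called (1.04, adjusted p = 0.112), while ANGPTL4 (2.24, adjusted p = 0.0168) and LPL (-0.89, adjusted p = 0.0471) were. The most abundant genes of the list that were not called, the lipoprotein APOE and the receptor LRP1, had 605 ± 185 and 422 ± 109, and 79.6 ± 24.9 and 79.6 ± 21.6 FPKM (SD, n = 7 and 4).

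Beyond the lipase, 3 of 18 tested genes of fatty acid uptake and activation were called higher and 1 lower (limma; 4 higher and 3 lower at an unadjusted p under 0.05), with a median log2FC of 0.15. CD36, a fatty acid and lipoprotein receptor of macrophages, endothelium and adipocytes, had 11.8 to 20.0 FPKM in diabetic wounds and 5.94 to 7.87 FPKM in non-diabetic wounds (log2FC 1.02, SE 0.16, adjusted p = 0.00523, limma). SLC27A3, of the fatty acid transport protein family, had 5.80 to 7.06 and 2.58 to 3.52 FPKM (0.92, SE 0.10, adjusted p = 0.000562), and SCARB1, the lipoprotein receptor SR-BI, had 26.0 to 42.4 and 18.6 to 23.5 FPKM (0.69, SE 0.14, adjusted p = 0.0183). ACSL3, which activates fatty acids to their CoA esters at the endoplasmic reticulum and nascent droplets, was lower, with 5.29 to 6.88 and 9.78 to 10.9 FPKM (-0.74, SE 0.09, adjusted p = 0.00103, limma). None of these 4 overlapped between groups, which is no separate support for genes picked by their call. SCARB1 was not called without non-diabetic wound 1, 3 or 4 (adjusted p = 0.051, 0.0552 and 0.0659, limma). With the macrophage covariate neither SCARB1 (adjusted p = 0.123) nor CD36 (adjusted p = 0.0626) was called (limma). The 2 further genes lower at an unadjusted p were ACSL1, which activates long-chain fatty acids, with 6.90 to 13.2 and 11.6 to 44.3 FPKM (-1.02, adjusted p = 0.0871), and OLR1, a receptor of oxidised lipoprotein, with 1.60 to 3.25 and 3.38 to 6.67 FPKM (-0.74, adjusted p = 0.0972, limma). The 1 further gene higher was ACSL5, with 13.3 to 26.2 and 11.5 to 13.8 FPKM (0.39, adjusted p = 0.266, limma). ACSL1, OLR1 and ACSL5 were named after their values were seen, and ACSL1 and OLR1 are on the study's list. The most abundant genes of the list, the epidermal carrier FABP5 (852 ± 338 and 804 ± 375 FPKM) and the acyl-CoA-binding protein gene DBI (148 ± 49.3 and 134 ± 29.5 FPKM), were not called.

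The wider droplet and lipolysis list had 1 gene called higher and 1 lower among 16 tested (limma; 5 higher and 2 lower at an unadjusted p under 0.05), with a median log2FC of 0.31. PLIN2, the droplet coat of cells other than mature adipocytes, had 41.6 to 61.2 FPKM in diabetic and 11.9 to 19.9 FPKM in non-diabetic wounds (1.58, SE 0.15, adjusted p = 0.000306, limma). It was highest in diabetic wound 1, where PLIN1 was lowest. In diabetic wound 6, where PLIN1 was highest, PLIN2 had 47.7 FPKM, near its diabetic median of 47.6 FPKM. PNPLA3, a relative of PNPLA2 that follows insulin and feeding in other tissues, had 0.298 to 1.38 and 2.45 to 4.74 FPKM (-1.66, SE 0.24, adjusted p = 0.00345, limma), and was not called with the macrophage covariate (-1.47, adjusted p = 0.0545). The abundant lipases LIPA (77.8 ± 15.1 and 60.6 ± 8.33 FPKM) and MGLL (15.9 ± 5.41 and 12.1 ± 3.00 FPKM) were not called. PLIN2, SLC27A3 and ACSL3 are among the genes that the study itself singled out on these samples.

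**Figure D5:**
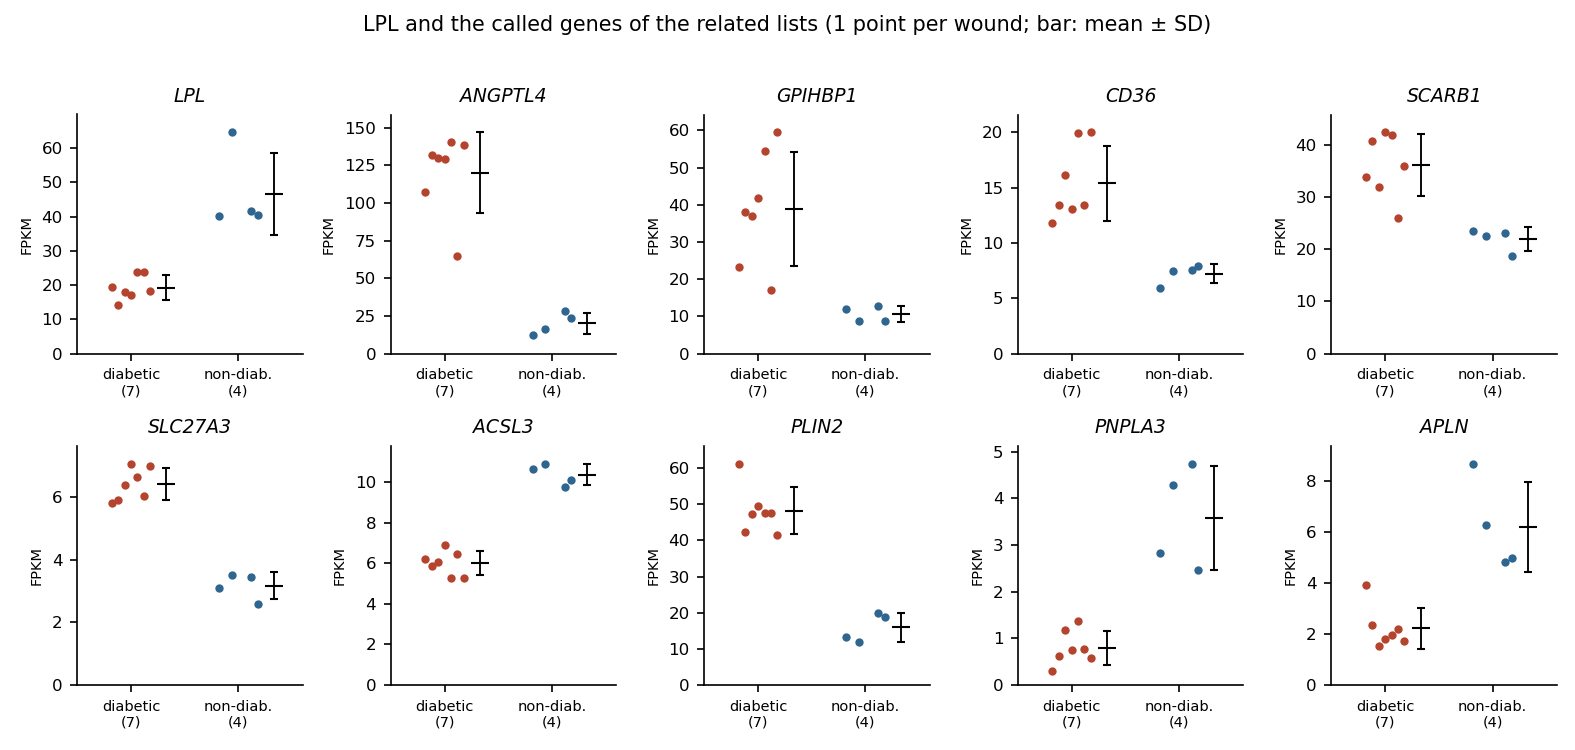
FPKM (linear axes from 0) of LPL and of the 9 genes called in the lists on lipase handling, fatty acid uptake, droplets and adipokines, 1 point per wound, with mean and SD beside the points. None of the 10 panels overlaps between the 7 diabetic and 4 non-diabetic wounds, with ANGPTL4, GPIHBP1, CD36, SCARB1, SLC27A3 and PLIN2 higher and LPL, ACSL3, PNPLA3 and APLN (an apelin gene) lower in the diabetic wounds. The genes were drawn because they were called in this same comparison, so their lack of overlap is no separate support. Of all genes tested, 5.65% did not overlap.

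The order of levels, which FPKM allows per length of gene, also differed between the groups by description. In non-diabetic wounds the means ran from FABP4 (210 FPKM) over ADIPOQ, FABP3, LPL, PNPLA2, PLIN1, CEBPA, LIPE and CIDEC to LEP (1.31 FPKM), with overlapping ranges at every step. In diabetic wounds FABP4 (403 FPKM) stood clear of ADIPOQ (64.1 FPKM) and CIDEC (3.04 FPKM) clear of LEP (0.156 FPKM), and the genes between overlapped, with LPL, CEBPA, FABP3 and PLIN1 at 19.3, 19.0, 19.0 and 18.6 FPKM.

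Outside the 10 genes, the patterns most like that of ADIPOQ over the 11 wounds, after the group means were subtracted, were those of the peroxisomal thiolase gene ACAA1 (Pearson's r 0.967), CAT (0.966), C4A (0.961) and the adipocyte genes TUSC5 (0.957) and PLIN4 (0.956). Those nearest to FABP3 were SLC2A4 (0.923), which encodes the insulin-responsive glucose transporter, ADH1C (0.913), ACSS3 (0.903), ELOVL6 (0.896), a fatty acid elongase gene that was called lower, and MLXIPL (0.879). LPL was nearest to ARHGAP32 (0.941), SLAIN2 (0.938), CRBN (0.915), KRT19 (0.884) and CDS2 (0.881), and LEP to F8A1 (0.903), SDCCAG3 (0.892), LOC100620402 (0.858), NIPSNAP2 (0.852) and RNF167 (0.848). These are the highest of all genes tested over wounds of only 2 animals. Non-diabetic wound 3, the highest of its group for LPL and FABP3, was also the highest for KRT19 and SLC2A4. KRT19 had 4.70 FPKM there against 0 to 0.159 FPKM in the other non-diabetic wounds, and SLC2A4 had 8.85 against 2.17 to 4.02 FPKM. The correlations were not run without that wound.

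Total reads on genes were 28314785 to 40168372 per wound. Collagen-rich fibroblast markers were abundant in all 11 wounds (19230 to 65412 FPKM summed), whereas 12 keratinocyte markers, of which KRT15 was called higher in diabetic wounds (limma), summed to 51.2 FPKM in diabetic wound 4 and 302 FPKM in non-diabetic wound 1, against 1717 to 7150 FPKM in the others. Sebaceous gland, another lipid-rich source in skin, was near absent, with 7 markers summing to 1.37 to 3.65 FPKM and AWAT1 at 0 in every wound. Without diabetic wound 4 and non-diabetic wound 1, LPL (-1.30, adjusted p = 0.0144) and FABP3 (-1.80, adjusted p = 0.018) stayed called. Within the 5 wounds of side letter L, LPL (-0.99, adjusted p = 0.133) and FABP3 (-1.66, adjusted p = 0.116) were not called, and within the 6 of letter R both were (-1.47 and -1.74, adjusted p = 0.0254 and 0.0475, limma). Within letter L none of the 9 called genes of the related lists was called.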

How the data were processed

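Polyadenylated RNA of 11 wounds was sequenced as directional libraries, 1 per wound. Reads were trimmed (fastp), aligned to the pig genome Sscrofa11.1 (HISAT2 2.2.1) and counted (featureCounts 2.0.6) by the authors, who deposited FPKM values for 30376 genes. The formula is not given in the sources used here. Multiplied by gene length, 100% of values were whole reads within 0.05 reads, and the implied library size was 0.854 to 1.18 times the summed reads. A read on a 2 kb gene was worth 0.0112 to 0.0194 FPKM.

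From there log2(FPKM + 0.5) was compared with limma 3.58.1 (R 4.3.3; trend, no covariate) for 13956 genes with at least 0.5 FPKM in at least 4 wounds, and single genes by exact permutation (SciPy 1.17.1). This fit was checked on simulated counts of known change. The 10 genes and all lists were chosen with earlier results of these data known. Named were all 10, each pathway list's called genes and 2 most abundant uncalled ones, and the 5 nearest patterns. Date-like symbols (26) were restored from the gene identifiers. The bases before gene starts were read from the Sscrofa11.1 RefSeq genome (pysam 0.24.0), and those of some of the 10 genes are not reported here. Alternatives (32) changed scaling, filter, pseudocount, covariates, weights and wounds, 2 of them added after seeing the data.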

Additional observations from a re-analysis of the deposited data

Results flagged for a closer look

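Of 20 groups checked (10 genes in 2 groups), 3 held a wound far from the others of its group. Chance flags about 1 in 20 only for independent groups of normally distributed values. Here the values were linear FPKM and the genes moved together (PLIN1 and CIDEC, Pearson's r 0.905, group means subtracted). The 3 are therefore not read as an excess. PLIN1 in diabetic wound 6 had 49.9 FPKM, above a next highest value of 22.8 FPKM. CIDEC in the same wound had 7.74 FPKM, above 3.51 FPKM. LPL in non-diabetic wound 3 had 64.7 FPKM, where the other 3 non-diabetic wounds lay between 40.2 and 41.7 FPKM, and LPL remained called without that wound. No difference between the side letters in the effect on any of the 10 genes passed a test of the interaction (adjusted p of at least 0.342, limma).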

How the results depend on the processing

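LPL was called lower under 30 of 32 alternatives (log2FC -1.47 to -0.89) and FABP3 under 29 of 32 (-1.91 to -1.43), and FABP4 was called higher under 3 of 32 (0.57 to 1.13). LEP was called lower under 22 of the 24 alternatives in which it passed the filter (-3.82 to -0.96). That LEP count is a description only, because LEP passed the filter only through the non-diabetic wounds, where it was high. The count of the 10 genes called lower was 0 with a replicate block, 0 within side letter L and 1 with the macrophage covariate (LPL), and 2 to 3 with each wound left out in turn. It was 2 without any 1 of the non-diabetic wounds, where LEP was no longer tested. The count called higher was 1 with library weights (FABP4), 2 with other adipocyte genes as a covariate, and 0 to 1 with each wound left out. LIPE (-0.10) was 0.12 with library weights, 0.39 within letter R, 0.43 with other adipocyte genes as a covariate and -0.31 to 0.19 with each wound left out, above 0 without diabetic wound 1 (0.19) or non-diabetic wound 2 (0.07). PNPLA2 (0.38) was -0.026 within letter L and 0.22 to 0.54 with each wound left out. CEBPA (0.15) was -0.038 with the replicate block, -0.035 within letter R, -0.024 with the keratinocyte covariate and -0.087 to 0.31 with each wound left out, lowest without non-diabetic wound 1. The cause was not tested for any of these.

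Over all genes, 188 were called higher and 231 lower. The counts were 406 and 416 with library weights, 3 and 4 within letter L, 726 and 626 within letter R, 106 and 81 without diabetic wound 4 and non-diabetic wound 1, and 112 and 124 with the skeletal muscle covariate. Other adipocyte genes as a covariate gave 296 higher. Leaving out each wound in turn gave 104 to 236 higher and 75 to 247 lower, with at most 122 lower without any 1 of the non-diabetic wounds. With the replicate block 11 were called higher and 5 lower, but the numbers did not pair the wounds (correlations of same-numbered wounds -0.27, 0.22, 0.07 and -0.48), and none of the called genes among the 10 or in the pathway lists kept its call under it (LPL -1.19, adjusted p = 0.179; FABP3 -1.63, adjusted p = 0.171, limma). LEP rested on at most 80 reads in any diabetic wound.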

Other observations

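Of 29 tested regulators of adipocyte differentiation none was called (limma; 0 higher and 4 lower at an unadjusted p under 0.05), with a median log2FC of 0.05. The most abundant were CEBPD (160 ± 43.2 and 151 ± 21.4 FPKM, SD, n = 7 and 4) and CEBPB (101 ± 45.6 and 81.1 ± 34.9 FPKM), which act early in differentiation. Of 11 tested adipokine and adipokine receptor genes, 1 was called lower: APLN, the gene of the vascular peptide apelin, had 1.54 to 3.93 FPKM in diabetic and 8.70, 4.84, 6.30 and 4.99 FPKM in non-diabetic wounds 1 to 4 (log2FC -1.31, SE 0.21, adjusted p = 0.00738, limma), and was not called with the macrophage covariate (adjusted p = 0.0801). RARRES2, which encodes chemerin (151 ± 46.2 and 131 ± 45.9 FPKM), and LEPROT (75.3 ± 7.41 and 72.6 ± 8.06 FPKM) were the most abundant and were not called.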
